A study of Rattus norvegicus with 24 samples.

Results

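The 12 libraries described here were the 6 with the most and the 6 with the least Hba-a2, an alpha-globin gene, among 24 RNA-Seq libraries of rat nucleus accumbens (NAc), a part of the striatum tied to reward. They were selected on a measured value, the FPKM (fragments scaled by the length of the transcript and the total of the library) summed over the 2 rows that carry the name Hba-a2. Each library came from a Sprague Dawley pup at postnatal day (P) 14, with 4 pups in each of 6 groups. The groups were in utero oxycodone (IUO), postnatal oxycodone (PNO) and saline (SAL), each in the F1 and the F2 generation. F0 dams of the IUO groups were given oxycodone by gavage every day, from before mating until weaning, at 10 mg/kg per day rising to 15 mg/kg per day. F0 dams of the PNO groups received 15 mg/kg per day from the birth of the litter until weaning, and F0 dams of the SAL groups received saline. The F2 pups were born to F1 females of the 3 conditions, which were not dosed themselves, and to sires from outside the study. Pups were male or female, and the labels do not give the sex of each pup.

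The Hba-a2-rich libraries held 4 IUO and 2 PNO pups, and the Hba-a2-poor libraries held 6 SAL pups. Exposure of the lineage and Hba-a2 level therefore cannot be told apart in this contrast. A second contrast without saline, and the 12 libraries in neither set, are given beside it. The sets are named by Hba-a2, the value that chose them, and not by blood. Among the members of the red cell, platelet and leukocyte lists only globin rows, 2 of them Hba-a2 itself, did not overlap between the sets. Over all genes, 0.109% lay above in all 6 rich libraries and 0.0869% below. With shares this small, overlap of the other members does not tell whether the sets differed in blood. Because the sets were chosen by their Hba-a2 level, differences between them are described without a test. Markers of striatal projection neurons were present in both sets, with Drd1, a dopamine receptor, at 15.0 ± 4.89 FPKM in the rich and 19.5 ± 5.10 in the poor libraries (SD, n = 6 each). In whole tissue fewer cells of a type and less RNA per cell cannot be told apart.

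Red blood cells carry hemoglobin, a complex of alpha and beta chains that each hold a heme. Their precursors make globin mRNA in large amounts, and young red cells in the circulation still carry some of it after most other transcripts are gone. Blood that remains in brain vessels also brings platelets and leukocytes, while the vessel wall itself is made of endothelial and mural cells.

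Promoters are shown for Hba-a2, for the beta-globin gene Hbb and for Alas2, which encodes the first enzyme of heme synthesis in red cell precursors, since globin genes differed together between the sets and Alas2 was the defining erythroid marker. They are RefSeq windows of 300 bases on build GRCr8, printed 5′ to 3′ on the strand of the gene. The Hba-a2 window was chr10:15829089-15829388 on the minus strand, that of Hbb chr1:167663672-167663971 on the minus strand and that of Alas2 chrX:22895200-22895499 on the plus strand. Capitals mark matches on either strand to GATAA, the core of sites for GATA factors, CACCC, the core of sites for Klf1, CCAAT and TATAA.
Hba-a2: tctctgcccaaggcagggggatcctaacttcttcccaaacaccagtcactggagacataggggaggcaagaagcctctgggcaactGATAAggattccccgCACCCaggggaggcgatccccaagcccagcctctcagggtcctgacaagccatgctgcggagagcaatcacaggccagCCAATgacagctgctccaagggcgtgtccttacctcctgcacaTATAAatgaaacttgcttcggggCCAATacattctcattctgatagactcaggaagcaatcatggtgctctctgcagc
Hbb: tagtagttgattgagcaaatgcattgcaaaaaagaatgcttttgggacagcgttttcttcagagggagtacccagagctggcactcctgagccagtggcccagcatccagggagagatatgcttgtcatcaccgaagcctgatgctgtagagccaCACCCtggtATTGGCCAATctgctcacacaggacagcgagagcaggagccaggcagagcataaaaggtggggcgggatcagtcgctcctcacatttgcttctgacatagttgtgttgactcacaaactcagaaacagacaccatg
Alas2: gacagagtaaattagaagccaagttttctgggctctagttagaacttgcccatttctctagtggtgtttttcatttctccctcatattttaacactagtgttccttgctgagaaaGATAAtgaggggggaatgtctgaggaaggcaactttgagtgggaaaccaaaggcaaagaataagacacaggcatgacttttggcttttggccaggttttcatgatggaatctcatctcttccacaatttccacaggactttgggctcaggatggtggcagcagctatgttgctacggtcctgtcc
The Hba-a2 window held matches to all 4 motifs, that of Hbb to CACCC and CCAAT, and that of Alas2 to GATAA. In the Hbb window, CCAAT and its reverse complement stand side by side. Such matches were common, with GATAA in 26.5%, CACCC in 54.9%, CCAAT in 37.5% and TATAA in 26.2% of all 33469 promoters. The Hba-a2 window was identical at 288 of 300 positions (96.0%) to that of Hba-a1, a neighbouring alpha-globin gene with no row of its own name in the files. This identity is that of the promoter windows, and the transcripts were not compared. Reads of copies with like transcripts can be split between rows, so the division of alpha-globin between the 2 Hba-a2 rows is uncertain. Their sum was used because the selection was made on all rows of that name.

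Summed Hba-a2 in the rich libraries was 86.9 FPKM in F2 IUO 1, 112 in F1 IUO 3, 115 in F2 IUO 4, 184 in F2 PNO 2, 384 in F1 IUO 2 and 429 in F1 PNO 3. In the poor libraries it was 12.2 in F1 SAL 1, 13.2 in F2 SAL 3, 15.9 in F2 SAL 4, 17.4 in F2 SAL 2, 18.3 in F1 SAL 2 and 18.3 in F1 SAL 3. The rich libraries thus spread widely around a mean of 219 ± 149.9 FPKM (SD, n = 6), while the poor libraries lay close together around 15.9 ± 2.66 (SD, n = 6). The ratio of these means was 13.8, and the highest library was 35.3 times the lowest. Just outside the rich set stood F1 SAL 4 at 83.3 FPKM and F2 IUO 3 at 82.4, and just outside the poor set stood F1 PNO 2 at 25.6. The lower limit of the rich set therefore divides libraries with nearly the same Hba-a2, and 1 of the libraries left out there was a saline library.

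**Figure D1:**
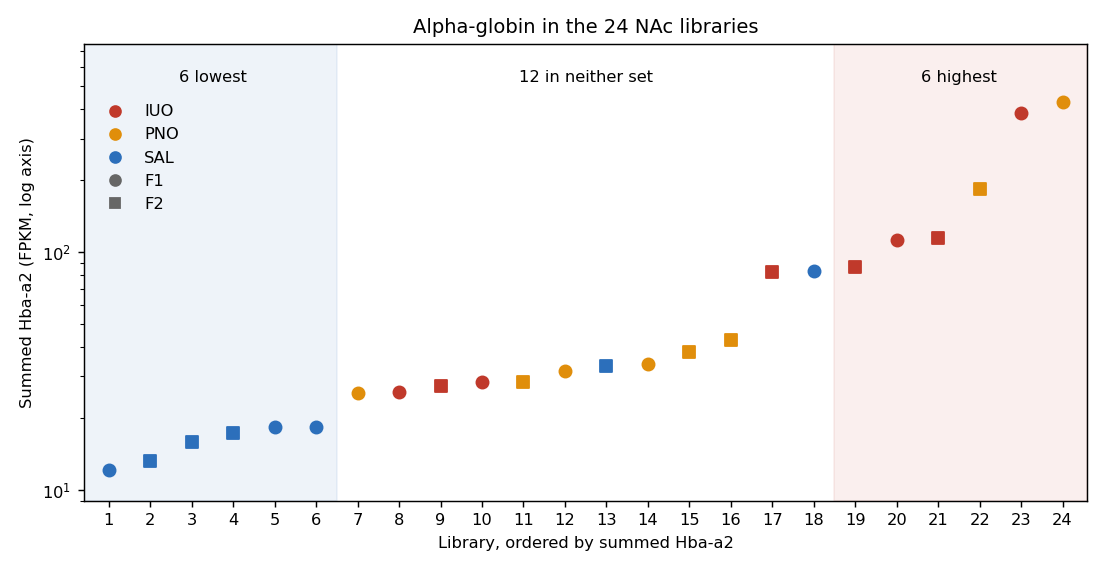
Summed Hba-a2 (FPKM, log axis) in the 24 libraries, ordered from lowest to highest, with colour for exposure and shape for generation, 1 point per library. The 6 lowest are all SAL, between 12.2 and 18.3 FPKM, the 6 highest are all IUO or PNO, between 86.9 and 429 FPKM, and 1 SAL library lies just below the highest set at 83.3 FPKM.

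Hba-a2 was compared between exposure groups within each generation by two-sided exact permutation of 4 against 4 libraries on log2(FPKM + 0.1), which can give no p below 0.0286. The groups come from the labels and not from Hba-a2, but the order of these same values was known when the test was chosen, so its p-values are no independent support for that order. In F2, Hba-a2 was 77.9 ± 36.7 FPKM in IUO (SD, n = 4) and 73.4 ± 74.1 in PNO (SD, n = 4), against 19.9 ± 9.10 in SAL (SD, n = 4). The exact p was 0.0571 for each oxycodone group against SAL, and 0.171 after adjustment over the 6 comparisons. In F1, Hba-a2 was 138 ± 169 FPKM in IUO (SD, n = 4) and 130.1 ± 199.5 in PNO (SD, n = 4), against 33.0 ± 33.7 in SAL (SD, n = 4), with exact p values of 0.171 and 0.371. The groups overlapped in every comparison with SAL, and no exact p passed 0.05. F2 IUO 2, at 27.28 FPKM the least of its group, was the F2 IUO library that overlapped SAL, whose highest value was 33.35. Without it the exact p of F2 IUO against SAL was 0.0286 before adjustment, the smallest that 3 against 4 libraries can give. Leaving out the overlapping library fixed this value, so it is no support for a difference. IUO and PNO differed least, by 0.35 on the log2 scale in both F1 (exact p = 0.943) and F2 (exact p = 0.657). In F1 the direction turned without F1 IUO 2 (-0.43) or F1 PNO 2 (-0.04).

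Beta-globin was also higher in every rich library than in every poor library, though within the sets its order was not that of alpha-globin. Hbb was 5.38 FPKM in F2 IUO 4, 5.53 in F2 IUO 1, 6.47 in F1 IUO 3, 10.6 in F2 PNO 2, 25.9 in F1 IUO 2 and 41.2 in F1 PNO 3, and between 0 and 2.65 in the 6 poor libraries. The rich and poor libraries did not overlap, and the same pair of libraries that led for Hba-a2 led for Hbb. LOC100134871, which the files describe as a beta chain of hemoglobin, was 38.2 ± 25.8 FPKM in the rich and 2.84 ± 1.52 in the poor libraries (SD, n = 6 each). LOC689064, which RefSeq names Hbb-bs, was 4.59 ± 3.60 and 0.39 ± 0.16 FPKM (SD, n = 6 each). Neither overlapped between the sets. Hba-a3, an alpha-like globin below 1 FPKM on average, was higher in the mean (2.04 against 0.25 FPKM) but was listed at 0 in F2 IUO 1, and its sets overlapped. The ratio of Hba-a2 to summed beta-globin was 3.94 ± 0.53 in the rich libraries and 4.41 ± 1.60 in the poor libraries (SD, n = 6 each), so it spread less where globin was abundant.

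A gene was counted as higher when its mean FPKM was at least 2-fold that of the other set and all 6 libraries lay above all 6 others. Of 18403 genes with at least 0.1 FPKM in 6 or more of the 24 libraries, 7 were higher in the rich libraries (0.038%) and 3 were lower (0.0163%). The rule used this contrast, and these shares are given as a description. With 1 library left out at a time, 7 to 17 genes were higher and 3 to 13 lower. The 7 comprised 5 globin rows, namely both Hba-a2 rows, Hbb, LOC100134871 and LOC689064, and 2 other genes near the limit of the values, Fcrla and Dnah8. Fcrla, an Fc receptor-like protein of B lymphocytes, was 0.30 ± 0.31 FPKM in the rich and 0.017 ± 0.027 in the poor libraries (SD, n = 6 each). It was 0.86 FPKM in F1 PNO 3 and 0.08 in F1 IUO 3 and F2 IUO 4, so its mean rested largely on few libraries. Dnah8, a dynein heavy chain of motile cilia, was 0.11 ± 0.045 and 0.055 ± 0.0055 FPKM. Dnah8 was no longer counted with 4 against 4 or 8 against 8 libraries, after upper-quartile rescaling, or when ranked within groups or by Alas2. Nor was it counted at a mean of at least 1 FPKM, among oxycodone libraries only, or without libraries above 1000 FPKM of Ttr. Leaving out F1 IUO 2, F2 IUO 1, F1 SAL 2, F1 SAL 3 or F2 SAL 4 also ended this count. The 3 lower genes were RF00087, AABR07009105.1 and Mir1249, a microRNA gene at 0.44 ± 0.24 FPKM in the rich and 1.72 ± 0.80 in the poor libraries (SD, n = 6 each). Of the genes of any size of difference, 20 lay above in all 6 rich libraries (0.109%) and 16 below (0.0869%). Fcna, a ficolin of monocytes and macrophages, was 1.71 ± 0.36 against 0.88 ± 0.24 FPKM, and Bst2, an interferon-induced surface protein, 2.60 ± 0.73 against 1.33 ± 0.16 FPKM (SD, n = 6 each). Both fell just short of 2-fold, and Fcrla, Dnah8, RF00087, AABR07009105.1, Fcna and Bst2 were named after their values were seen.

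No erythroid gene other than the globins was higher by this count, although Ahsp was when F2 SAL 2 was left out. That is the poor library with the most Ahsp, so leaving it out removed the overlap. Alas2 was 0.35 FPKM in F1 IUO 2, 0.33 in F2 PNO 2, 0.22 in F1 IUO 3, 0.19 in F1 PNO 3, 0.08 in F2 IUO 1 and listed at 0 in F2 IUO 4. In the poor libraries it was between 0 and 0.08 FPKM. Thus 4 of the 6 rich libraries lay above all poor libraries, while F2 IUO 4, with 115 FPKM of Hba-a2, had no Alas2 value above 0. This library also had the most genes listed at 0 of all 24, 7532, where the other rich libraries had 4818 to 6076. The mean was 0.195 ± 0.137 against 0.032 ± 0.033 FPKM (SD, n = 6 each), and Alas2 did not pass the filter on low values. Elsewhere it did not exceed 0.07 FPKM, and F1 SAL 4 and F2 IUO 3, with Hba-a2 near that of the lowest rich library, had 0.06 and 0.05 FPKM.

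Of 24 erythroid symbols, 21 were in the files and 10 passed the filter, while 12 had a mean below 0.1 FPKM. Over all 21, the difference in mean log2(FPKM + 0.1) was above 0 for 13 and below 0 for 6, with a median of 0.07 against -0.02 over all genes that passed the filter. Bpgm, which makes the red cell's regulator of oxygen release, was the most abundant at 56.2 ± 5.90 against 54.5 ± 4.05 FPKM (SD, n = 6 each). Fech, which inserts iron into heme, was 11.9 against 11.4 FPKM in the mean, and its sets overlapped. Both are also made in other tissues. Ahsp, the chaperone of free alpha-globin, ranged from 0.61 to 5.04 FPKM in the rich and from 0 to 5.10 in the poor libraries. Its highest values among the 12, 5.10 and 5.04 FPKM, stood in a poor library (F2 SAL 2) and in the rich library with the least Hba-a2 (F2 IUO 1). Klf1, the erythroid activator of beta-globin, was 0.84 ± 0.34 against 0.44 ± 0.20 FPKM with overlap, and was named after its values were seen, as were the following. Hemgn, a nuclear protein of red cell precursors, reached 0.16 FPKM in the rich and 0.06 in the poor libraries. For Hemgn, 5 of 6 rich libraries lay above all poor libraries, and F2 PNO 2 was listed at 0. Slc4a1, the anion exchanger of the red cell membrane, reached 0.17 and 0.03 FPKM, with 3 of 6 rich libraries above all poor ones. Others had lower means in the rich libraries, again with overlap. Nfe2, a transcription factor of erythroid cells and megakaryocytes, was 0.048 against 0.13 FPKM, the blood group gene Kel 0.215 against 0.298, and Epor, the erythropoietin receptor, 0.74 against 0.86. Slc25a37, a mitochondrial iron importer, was 1.22 against 1.36 FPKM, the membrane skeleton gene Epb42 0.050 against 0.073, and the transcription factor gene Tal1 0.76 against 0.81. The summed erythroid list was 75.3 ± 5.75 FPKM in the rich and 71.5 ± 6.61 in the poor libraries, and most of that sum was Bpgm.

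**Figure D2:**
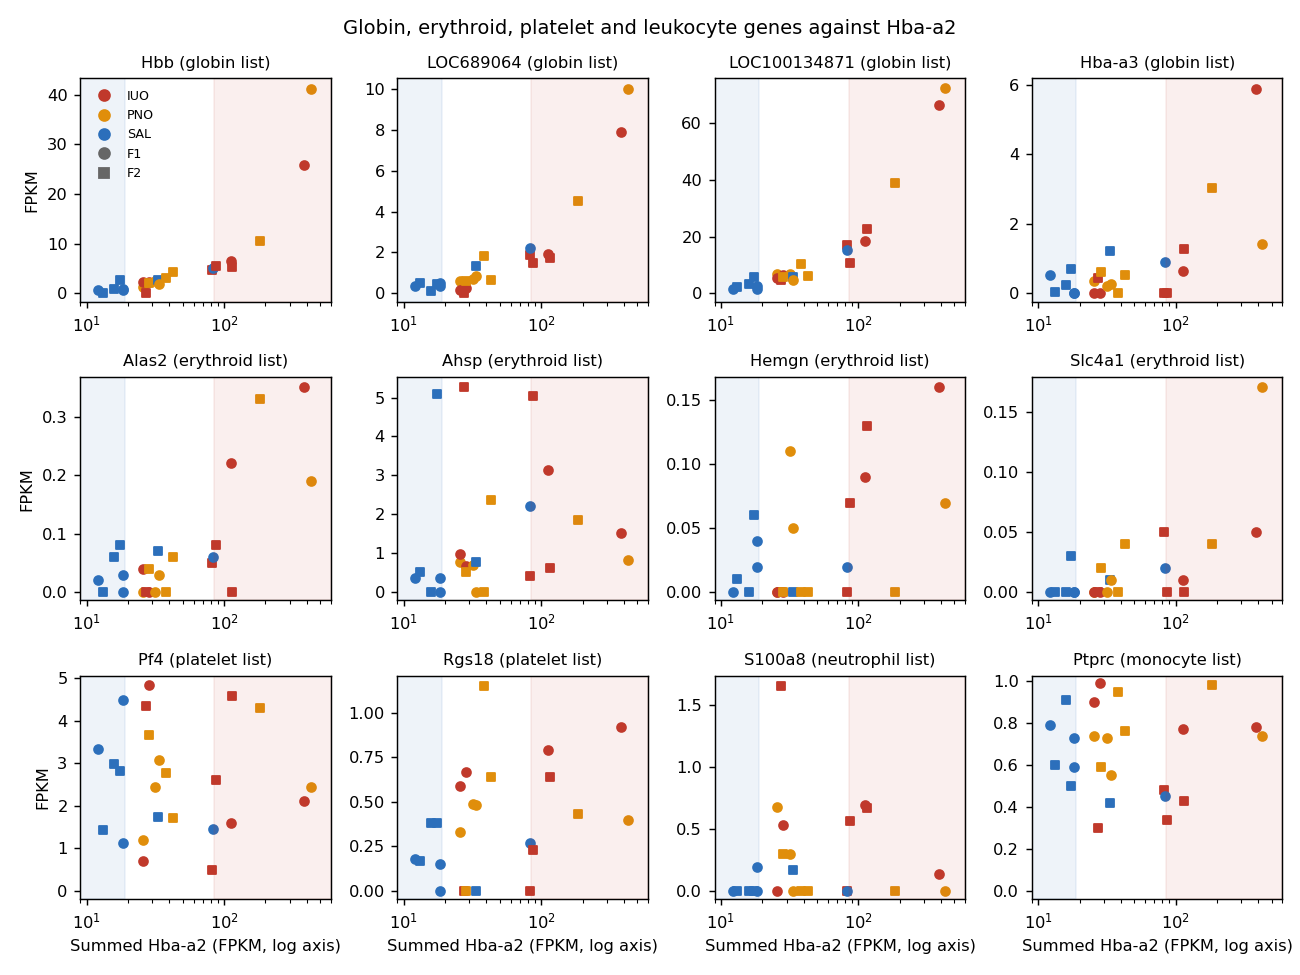
FPKM of 12 genes against summed Hba-a2 (FPKM, log axis), 1 point per library, with colour for exposure, shape for generation and shading for the poor (left) and rich (right) sets. Hbb, LOC689064 and LOC100134871 climb with Hba-a2, Alas2 lies between 0.19 and 0.35 FPKM in 4 rich libraries, and Ahsp, Pf4, S100a8 and Ptprc overlap between the sets.

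Of 15 platelet genes measured, 0 were counted as higher or lower in the rich libraries, beside 0.038% and 0.0163% of all genes. Of the 15, 9 passed the filter. The median difference over all 15 was -0.08, and 5 members were above 0 and 9 below. Pf4, a chemokine of platelet granules and the most abundant member, was 2.94 FPKM in the rich and 2.69 in the poor libraries in the mean, with values from 1.60 to 4.58 and from 1.13 to 4.49. Gp1bb, part of the receptor for von Willebrand factor, was 1.77 against 1.85 FPKM, and Itga2b, the platelet fibrinogen receptor chain, 0.56 against 1.01. Rgs18, a regulator of G protein signalling in platelets, was 0.57 ± 0.26 against 0.21 ± 0.15 FPKM, with 5 of 6 rich libraries above all poor libraries. Leaving out the sixth, F2 IUO 1, removed the overlap, so that Rgs18 was then counted as higher was fixed by that choice. Its highest value, 1.15 FPKM, was in F2 PNO 3, a library in neither set. In the libraries of neither set its slope on Hba-a2 was -0.34 (limma unadjusted p = 0.61). It was named after its values were seen. Ppbp, a platelet chemokine gene, was listed at 0 in all 12 libraries, and Gp9 and Tubb1, which encode a platelet glycoprotein and a tubulin, in all 6 rich libraries and in 4 and 5 of the poor ones. Gp6, the platelet collagen receptor gene, was listed at 0 in all 6 poor libraries and above 0 in 3 of the rich, at most 0.1 FPKM.

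Leukocyte genes gave the same count. No member was counted among 12 neutrophil, 15 lymphocyte and 11 monocyte and other leukocyte genes, beside 0.038% higher and 0.0163% lower of all genes. Of these members, 7, 4 and 10 passed the filter. Over all measured members of each list, the median differences were 0.02, -0.03 and -0.03. Lcn2, a siderophore-binding protein of neutrophil granules that other brain cells also make, was 7.28 against 6.01 FPKM, and its sets overlapped. Csf3r, the receptor for granulocyte colony-stimulating factor, was 0.84 against 1.0 FPKM, and Camp, an antimicrobial peptide, 0.085 against 0.28. S100a8, a calcium-binding protein of neutrophils named after its values were seen, was 0.56, 0.69 and 0.67 FPKM in F2 IUO 1, F1 IUO 3 and F2 IUO 4, at 0.14 in F1 IUO 2 and at 0 in the rest of the rich set, which included the library with the most Hba-a2. In the poor set it was at 0 in all but F1 SAL 3 (0.19 FPKM). The elastase gene Elane was listed at 0 in all 12 libraries. Among lymphocyte genes, Lck, a T cell kinase, was 2.38 against 2.32 FPKM, Jchain, which joins immunoglobulin polymers, 0.30 against 0.34, and Cd2, a T cell adhesion molecule, 0.22 against 0.33. Among the other leukocyte genes, Coro1a, an actin regulator, was 54.0 ± 8.86 against 47.7 ± 10.9 FPKM (SD, n = 6 each). Lyz2, lysozyme, was 18.7 against 17.3 FPKM, and S100a4, a calcium-binding protein, 6.84 against 4.91. The sets overlapped for each.

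Microglia, the resident macrophages of the brain, were set apart from blood leukocytes by their own list, and 0 of its 14 genes was counted, with 8 above 0 and 6 below. The median difference was 0.05, and -0.05 without F1 SAL 1. It was 0.28 when libraries were ranked within groups (14 of 14 above 0) and 0.17 when ranked by Alas2 (13 of 14), beside 0.06 and 0.13 over all genes. C1qb and C1qa, chains of complement C1q, were 49.5 against 47.4 and 44.9 against 39.8 FPKM. Tyrobp, a signalling adaptor, was 28.9 against 23.9 FPKM, and its sets overlapped. Others had lower means in the rich libraries, also with overlap, and were named after their values were seen. The purinergic receptor gene P2ry12 was 11.1 ± 3.89 against 15.4 ± 2.17 FPKM (SD, n = 6 each), the fractalkine receptor gene Cx3cr1 17.6 ± 5.41 against 23.2 ± 3.04 (SD, n = 6 each) and Csf1r, the receptor for macrophage colony-stimulating factor, 24.02 against 26.2.

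Most genes of the vessel wall had lower means in the rich libraries, which were all exposed, than in the poor saline libraries. This was not so when libraries were ranked within groups or by Alas2. The median over all genes moved too, from -0.02 to 0.06 and 0.13 under these rankings. Among 22 endothelial genes, 6 had a difference above 0 and 16 below, with a median of -0.16, and 0 was counted at 2-fold. Over all genes that passed the filter, 45.9% were above 0. Ranked within groups, the endothelial median was 0.08 (12 of 22 above 0) and the mural median 0.008 (8 of 15), and ranked by Alas2 they were 0.13 (19 of 22) and 0.30 (13 of 15). The endothelial medians thus lay near those of all genes, while the mural median lay below within groups and above by Alas2. The low set of the Alas2 ranking held 0 saline libraries and included F2 IUO 4, since it was drawn in file order from 8 libraries tied at 0. Under the Alas2 ranking, genes of meninges and fibroblasts (median 0.60) and of choroid plexus (median 2.64) were above 0 for 15 of 15 each, and their part in this was not tested. Eng, a co-receptor for TGF-beta on endothelium named after its values were seen, was the only list member other than globins with no overlap between the sets. It was 12.2 FPKM in F2 IUO 4, 14.7 in F1 PNO 3, 14.9 in F2 PNO 2, 15.0 in F1 IUO 3, 15.4 in F2 IUO 1 and 15.9 in F1 IUO 2, and between 17.7 and 22.9 FPKM in the poor set. The saline libraries outside the poor set had 21.8 FPKM (F2 SAL 1) and 17.2 (F1 SAL 4). The latter, with 83.3 FPKM of Hba-a2, was thus the lowest saline library for Eng. Itm2a, a membrane protein and the most abundant member, was 42.2 ± 5.94 against 36.6 ± 5.98 FPKM (SD, n = 6 each). Slc2a1, the glucose transporter of the blood-brain barrier, was 33.1 against 40.0 FPKM, and Slco1c1, a thyroid hormone transporter, 32.0 against 27.3. Each of these overlapped, and Cldn5, a tight junction protein that brain endothelium makes throughout, was listed at 0 in 22 of 24 libraries and could not serve as a measure of vessels.

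Mural genes, those of pericytes and smooth muscle, were above 0 for 1 of 15 and below 0 for 14, with a median of -0.24, and 0 was counted. Rgs5, a pericyte marker, was 30.8 ± 8.83 against 32.8 ± 2.93 FPKM (SD, n = 6 each). Vtn, vitronectin, was 19.2 against 23.0 FPKM, and Myl9, a myosin light chain of smooth muscle, 17.5 against 20.1. All 3 overlapped between the sets, as did every other mural gene. Of 15 genes of meninges and fibroblasts, 6 were above 0 and 9 below, with a median of -0.15 that ran from -0.42 to 0.10 with 1 library left out at a time and was above 0 without F1 IUO 2, F2 PNO 2, F1 SAL 1, F1 SAL 2 or F2 SAL 4. Ptgds, a prostaglandin D synthase of the meninges, spanned 78.1 to 999 FPKM in the rich and 10.0 to 940.3 in the poor libraries. Mgp, a matrix protein, was 22.2 against 18.9 FPKM and Igf2, a growth factor, 29.4 against 23.4.

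Genes that handle heme and iron outside red cells were also compared. Of 13 measured, 8 were above 0 and 5 below, with a median of 0.07, and 0 was counted. The median ran from 0 without F1 SAL 2 and 0.007 without F2 SAL 4 to 0.13 without F2 PNO 2, and was -0.06 without libraries above 1000 FPKM of Ttr (4 of 13 above 0). Fth1 and Ftl1, the ferritin chains that store iron, were 822 ± 173 against 728 ± 81.8 and 361 ± 49.3 against 329 ± 38.9 FPKM (SD, n = 6 each). Hmox2, the constant heme oxygenase, was 34.8 against 37.2 FPKM, and Hmox1, the inducible one, 4.73 against 4.03. The sets overlapped for each of them.

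**Figure D3:**
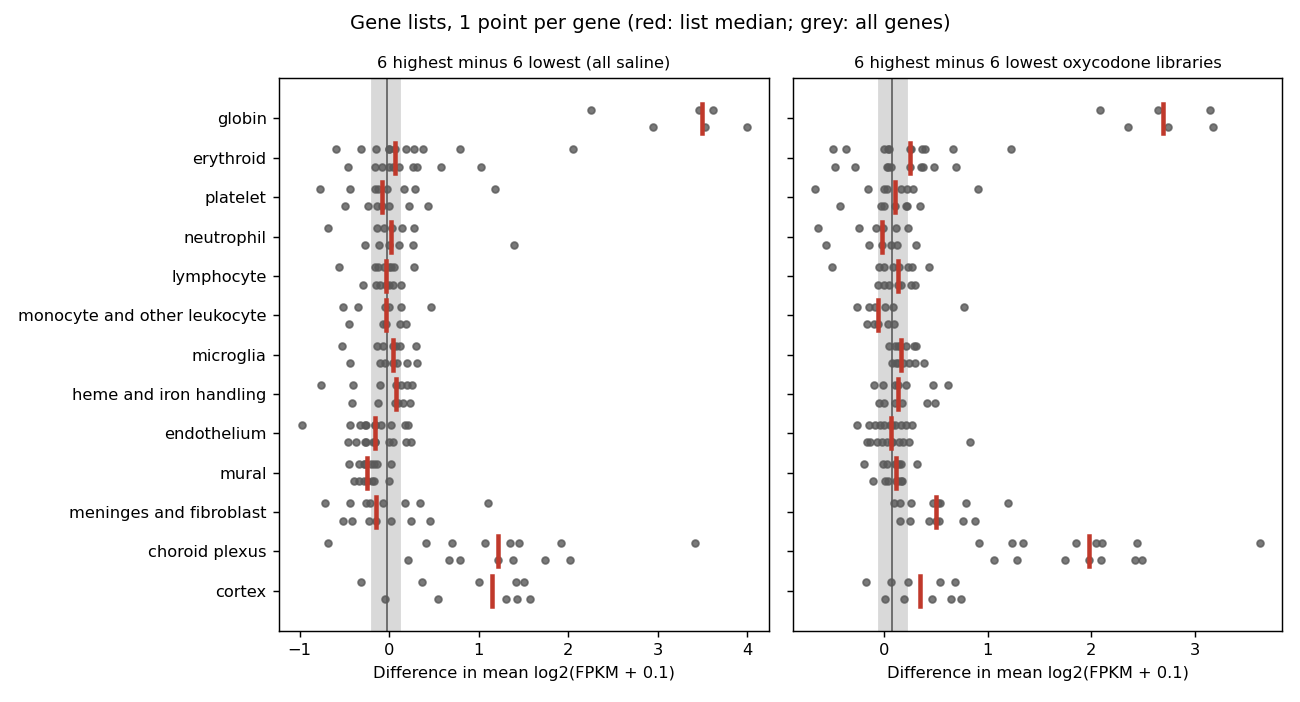
Difference in mean log2(FPKM + 0.1) for the genes of 13 lists, 1 point per gene, with the list median in red and the median and quartiles of all genes that passed the filter in grey. The left panel sets the rich libraries against the poor saline libraries and the right panel against the 6 lowest oxycodone libraries. The globin list holds the 2 Hba-a2 rows that chose the sets. Its other 4 rows lie between 2.25 and 4.00 on the left and between 2.08 and 3.18 on the right. The erythroid, platelet and leukocyte medians lie between -0.08 and 0.25. The mural median moves from -0.24 to 0.11, and that of all genes from -0.02 to 0.07.

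To leave saline out, the same 6 rich libraries were set against the 6 oxycodone libraries with the least Hba-a2, a contrast added after seeing the data. These were F1 PNO 2, F1 IUO 4, F2 IUO 2, F1 IUO 1, F2 PNO 1 and F1 PNO 4, with 25.6 to 31.7 FPKM of Hba-a2. They held 3 IUO and 3 PNO pups, 4 of them F1, while the rich set held 4 IUO and 2 PNO pups, 3 of them F1, so kind of exposure and generation were not balanced. Here 10 of 18403 genes were higher (0.0543%) and 2 lower (0.0109%). The 10 were the same 5 globin rows, Fcrla, Dbh, which makes noradrenaline from dopamine, the neuropeptide gene Nmb, the pentraxin gene Ptx3 and LOC100912483. These 4 genes beside Fcrla were named after their values were seen. Across both contrasts, 6 genes lay above in every rich library, which were the 5 globin rows and Fcrla. The contrasts share the rich libraries, so the second is no independent repeat. The erythroid median was 0.25, the platelet median 0.11, the endothelial median 0.06 and the mural median 0.11, beside 0.07 over all genes. Mural genes, below 0 for 14 of 15 against the saline libraries, were above 0 for 12 of 15 against the exposed libraries, where 65.1% of all genes were above 0, and Eng differed by 0.18 with overlap. All 15 genes of meninges and fibroblasts (median 0.50), all 15 of choroid plexus (median 1.98) and all 14 of microglia (median 0.16) were above 0 there. No list member other than globins lay above or below in all 6 rich libraries in the second contrast. The share of all genes that did so was not counted there. In the first contrast it was 0.109% above and 0.0869% below, so this absence is no result about the members.

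The 12 libraries in neither set were placed there by their Hba-a2, while the values of other genes in them had no part in the choice. Their Hba-a2 ranged from 25.6 to 42.9 FPKM in 10 libraries and was 82.4 and 83.3 FPKM in the other two. The slope of log2(FPKM + 0.1) on log2 Hba-a2 was fitted by limma over 17084 genes, where a slope of 1 means that a gene doubles when Hba-a2 doubles. With Benjamini-Hochberg adjustment, 1 gene passed 0.05 (0.00585%), and it was a row of Hba-a2 itself, which is part of the measure it was fitted to. Of the 4 globin rows that were not Hba-a2, 3 had a slope above 0 at an unadjusted p under 0.05. Outside the globins, 0 genes passed and 331 had an unadjusted p under 0.05. LOC100134871 had a slope of 0.91 (SE 0.16, limma unadjusted p = 5.96e-05, adjusted p = 0.34). Hbb had a slope of 1.30 (SE 0.60, limma adjusted p = 0.999) and LOC689064 one of 1.53 (SE 0.47, limma adjusted p = 0.999). Among 10 erythroid genes tested there, 0 rose or fell at an unadjusted p under 0.05, beside 1.45% rising and 0.515% falling over all genes. The same was found for 7 platelet, 21 endothelial, 15 mural and 14 microglial genes. In the other blood lists, S100a8 had a slope of -1.44 (limma unadjusted p = 0.0291, adjusted p = 0.999) and S100a4 one of 0.59 (limma unadjusted p = 0.022, adjusted p = 0.999), and neither passed. The genes with the smallest p outside the globins were Gas2, a microfilament protein, with a slope of -1.09, the small RNA genes RF00045 and RF00181, Abhd14a and LOC100911130, each with an adjusted p of 0.999 by limma. Alas2 did not pass the filter in these 12 libraries, and without the filter its slope was 0.28 (SE 0.16, limma unadjusted p = 0.103).

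Differences among the 6 groups were tested by limma's F test over all 24 libraries. Of 18403 genes, 26 had an adjusted p under 0.05 (0.141%) and 3126 an unadjusted p under 0.05 (17.0%). The count ran from 5 to 123 with 1 library left out at a time, 123 being without F2 PNO 4. None of the 26 belonged to any of the 21 lists, and 35 of the 232 list rows tested had an unadjusted p under 0.05. Retsat, a retinol saturase with the smallest p (limma adjusted p = 0.0029), was 27.6 FPKM in F1 PNO and 12.8 in F1 SAL. It lay above in all 6 rich libraries, at 16.6 ± 4.3 against 12.6 ± 0.36 FPKM (SD, n = 6 each), and was also high in F1 PNO 4 (33.5 FPKM) and F1 PNO 1 (30.4), whose Hba-a2 was 31.7 and 33.7 FPKM. Of the globin rows, LOC100134871 had the smallest p of this test (limma adjusted p = 0.36). Eng had an adjusted p of 0.11 by limma.

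Markers of choroid plexus and cortex, tissues outside the NAc, were also compared. Of 15 choroid plexus genes, 14 had a difference above 0, with a median of 1.22, though 0 was counted since the sets overlapped. The median was 0.59 without F1 IUO 3, 0.72 without F2 IUO 1 and 1.94 without F1 SAL 1. It was 0.31 when ranked by all globin rows (12 of 15 above 0) and 0.57 with 8 against 8 libraries (14 of 15). Its sign turned with 4 against 4 libraries (-0.48, 1 of 15 above 0) and with libraries ranked after subtracting their group mean of log2 Hba-a2 (-0.50, 2 of 15). Ttr, the thyroxine carrier made by choroid plexus and the most abundant of them, was 12103 FPKM in F2 IUO 1, 8011 in F1 IUO 3, 3742 in F1 PNO 3, 22.8 in F1 IUO 2, 8.52 in F2 PNO 2 and 3.15 in F2 IUO 4. In the poor set it was 5121 FPKM in F1 SAL 1 and between 1.86 and 77.3 in the rest. High Ttr thus occurred at both ends of the Hba-a2 order and Ttr was low in 3 of the rich libraries. Without the 4 libraries above 1000 FPKM of Ttr, which leaves 3 rich and 5 poor libraries, the choroid plexus median was -0.34, and that of meninges and fibroblasts went from -0.15 to -0.65. The erythroid median was then 0 and the endothelial median -0.25. Of 10 cortex genes, 8 were above 0, with a median of 1.15. It was 0.47 without F1 SAL 3, 0.20 with 4 against 4 libraries, 0.28 when ranked within groups and 0.34 against the 6 lowest oxycodone libraries. Slc17a7, a glutamate transporter of cortical neurons, was 149.9 to 254 FPKM in the rich libraries, and 3.94 in F1 SAL 3, 61.3 in F1 SAL 2 and 113 to 226 in the rest of the poor set. The part of these tissues in the differences between the sets was not tested.

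**Figure D4:**
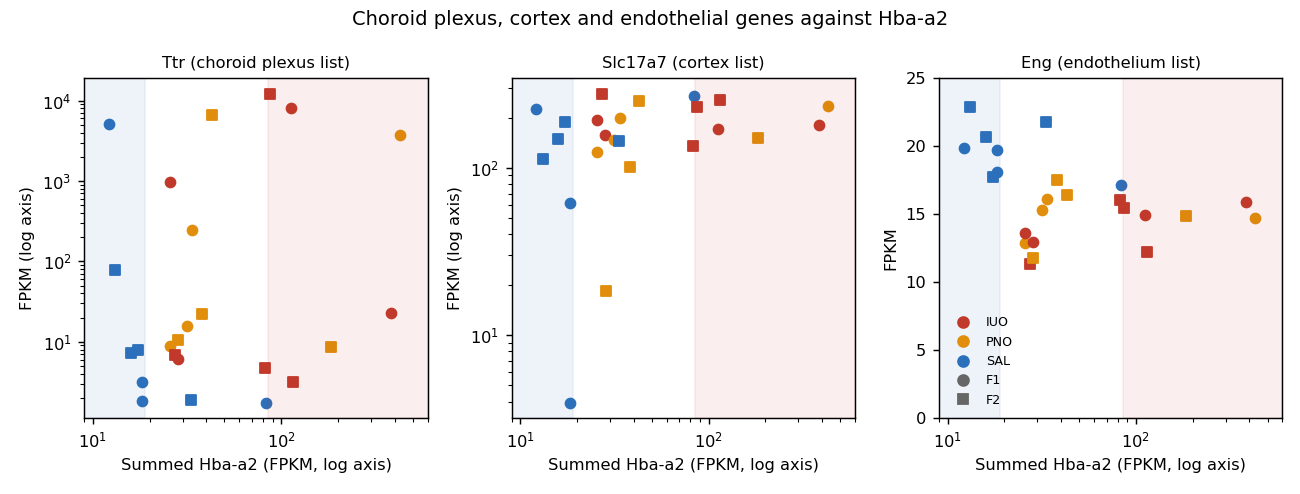
FPKM of Ttr and Slc17a7 (log axes) and of Eng (linear axis) against summed Hba-a2 (FPKM, log axis), 1 point per library, with colour for exposure, shape for generation and shading for the poor (left) and rich (right) sets. Ttr exceeds 1000 FPKM in 3 rich libraries and 1 poor library, Slc17a7 is lowest in F1 SAL 3 at 3.94 FPKM, and Eng is at or above 17.2 FPKM in all saline libraries.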

How the data were processed

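RNA of NAc tissue from 24 P14 pups was sequenced, 1 library per pup. The authors deposited FPKM values per gene with 2 decimals, from StringTie run on 1 merged set of transcripts, and the submitters' processing notes also name HISAT2, SAMtools and edgeR. The genome build is not given in the sources used here. FPKM were not rescaled between libraries, whose sums ran from 535866 to 766781. Whole reads could not be recovered from StringTie's values, so the depth is unknown, and zeros are given as listed at 0 because they may be failed estimates.

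The 6 highest and 6 lowest libraries by summed Hba-a2 were described on log2(FPKM + 0.1) over genes with at least 0.1 FPKM in 6 of 24 libraries, and fold changes of low genes are understated on that scale. Slopes in the other 12 libraries and differences among the 6 groups were fitted by limma 3.58.1 in R 4.3.3 (eBayes with a trend) with Benjamini-Hochberg adjustment over all genes tested. No libraries held identical values. p-values of the F test measure the spread between pups of a group. Those of the slopes rest on the spread around 1 line over the 12 libraries, which came from all 6 groups, with no term for group. Those of the exact test come from reordering the labels of the 8 libraries compared. On simulated data, the slope fit recovered 70.5% of genes with a slope of 1 and the F test 49.5% of genes shifted by 1. The changed genes were drawn from the more abundant ones and given independent normal noise. These shares therefore do not hold for genes of low FPKM, among them the 12 erythroid genes with a mean below 0.1 FPKM. In the real libraries LOC100134871, with a slope of 0.91, did not pass (limma adjusted p = 0.34).

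Members, the 21 marker lists and the tests were chosen with earlier results of these data known. Of 303 list symbols, 269 were in the files and the rest were not analysed here. Named by rule were globins with a mean of at least 1 FPKM, the 3 most abundant and every counted member of 10 blood, vessel and related lists, up to 10 counted genes outside the lists in each direction with a mean of at least 1 FPKM, the 5 smallest p in the middle libraries, and the most abundant gene of each other list. Promoters were matched by symbol. Alternatives covered the pseudocount, rescaling, filters, the ranking measure, the number of libraries, ranking within groups, covariates and each library left out. Tables and figures were made in Python with pandas and matplotlib.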

Additional observations from a re-analysis of the deposited data

Results flagged for a closer look

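Within each group of 4 pups, 9 measures were searched for a library far from the others, and 6 of 54 groups held one. The limit used lets about 1 in 20 pass by chance. The measures are not independent, since Hba-a2 and beta-globin went together, so the 6 cannot be read as an excess over that share. Summed Hba-a2 is the value that chose the rich set, so its gap in F1 PNO 3 is a description, and beta-globin differed alongside it. Summed Hba-a2 in F1 PNO 3 was 429 FPKM against 25.6 to 33.7 in the other F1 PNO libraries (gap over range 0.903 on the log2 scale). Summed beta-globin in F1 PNO 3 was 123 FPKM against 7.55 to 10.1 (gap over range 0.898). Summed beta-globin in F1 SAL 4, the saline library just outside the rich set, was 22.5 FPKM against 2.67 to 3.67 in the other F1 SAL libraries (gap over range 0.853).

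The summed choroid plexus list, most of it Ttr, gave the other three. It was 5358 FPKM in F1 SAL 1 against 15.0 to 32.4 (gap over range 0.869), 12400 FPKM in F2 IUO 1 against 17.0 to 30.4 (gap over range 0.912) and 6958 FPKM in F2 PNO 4 against 30.4 to 43.7 (gap over range 0.933). The first of these is in the poor set, the second in the rich set and the third in neither.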

How the results depend on the processing

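Of the 5 globin rows counted as higher, 2 are Hba-a2 rows, which the ranking fixes. Ranked by Alas2, 0 of the globin rows were counted, and 3 when ranked within groups. All 6 globin rows stayed higher in the mean in both rankings, with medians of 1.83 and 2.65. The Alas2 ranking put F2 IUO 4 in the low set and F2 SAL 2 in the high set. The 7 genes counted as higher became 42 when ranked by Alas2 (8 libraries tie at 0, taken in file order), 26 with 4 against 4 libraries, 49 without libraries above 1000 FPKM of Ttr, and 7 to 17 without 1 library each (17 without F2 IUO 4, 15 without F2 SAL 2, 12 without F1 SAL 1, and 11 without F2 PNO 2, F1 IUO 2 or F1 SAL 3). The 3 counted as lower became 6 after upper-quartile rescaling or at 1.5-fold, 5 when ranked by all globin rows or with any mean above 0, 1 when ranked by Alas2 or within groups or at a mean of at least 1 FPKM, 73 with 4 against 4, 0 with 8 against 8, 108 without libraries above 1000 FPKM of Ttr, and 3 to 13 without 1 library each, where only leaving out F2 IUO 4 kept 3. The mural median of -0.24 became 0.30 when ranked by Alas2 and 0.11 among oxycodone libraries only. The median over all genes, -0.02, became 0.13 and 0.07 in these settings. The settings on Ttr and on oxycodone libraries were chosen after seeing the data. At list level, Kel was higher when ranked by Alas2, Nfe2 lower with 4 against 4 libraries, and Rgs18 higher and Itga2b lower with 4 against 4 and without libraries above 1000 FPKM of Ttr. Outside the blood lists, Neurod6 was higher without F1 IUO 3 and, with Otx2 lower, without libraries above 1000 FPKM of Ttr, and Hcrt was higher without F2 IUO 4. Without 1 library each, medians ran from 0.03 to 0.09 for erythroid, -0.08 to 0 for platelet, -0.004 to 0.11 for neutrophil, -0.08 to 0.04 for lymphocyte, -0.12 (F1 IUO 2) to 0.08 (F2 IUO 1) for monocyte and other leukocyte, -0.25 (F1 PNO 3) to -0.06 (F2 IUO 4) for endothelium and -0.27 to -0.14 (F2 IUO 4 or F2 SAL 2) for mural genes. The difference of Alas2, 1.03 on the log2 scale, was 0.20 with a pseudocount of 1 and ran from 0.87 to 1.31 without 1 library each. In the libraries of neither set, 1 gene had a slope without each library in turn and 6 with any mean above 0, and the slope of Alas2 could be fitted only there.

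Genes that differed among the 6 groups numbered 11 with a pseudocount of 1, 8 with Hba-a2 as a covariate, 28 with a replicate block and 5 to 123 without 1 library each. There were 123 without F2 PNO 4, 16 without F2 IUO 2, 15 without F1 IUO 2, 10 without F2 IUO 1, 9 without F2 SAL 4, 8 without F2 IUO 4 or F1 PNO 2, 6 without F1 IUO 3, F1 PNO 1, F2 PNO 3, F1 SAL 2 or F2 SAL 1, and 5 without F1 PNO 4, F2 PNO 2 or F2 SAL 3. For Hba-a2 between groups, on the log2 scale, leaving out 1 library each gave 0.84 to 2.22 (F1 IUO against SAL), 0.32 to 1.87 (F1 PNO against SAL), 1.63 to 2.32 (F2 IUO against SAL), 0.94 to 1.84 (F2 PNO against SAL), 0.04 to 0.94 (F2 IUO against PNO) and -0.43 to 1.31 (F1 IUO against PNO), reversed at -0.43 without F1 IUO 2 and -0.04 without F1 PNO 2. Leaving out F2 IUO 2, the library that overlapped SAL, fixed the exact p of F2 IUO against SAL at its smallest, 0.0286. With paired numbers the exact p of the 6 comparisons ran from 0.125 to 1.0. The sum of all globin rows, FPKM without a log and the replicate block changed no other call. The median correlation was -0.016 between same-numbered libraries of other groups (lowest -0.331) and 0.005 between other-numbered ones. The block, whose exact test of 4 pairs gives no p below 0.125, therefore pairs numbers only. The causes of these changes were not tested. Depth is unknown, and 12 of 21 erythroid genes had a mean below 0.1 FPKM, where values with 2 decimals are coarse.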

Other observations

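The direction of NAc neuron genes depended on how libraries were ranked. Of 15 genes of striatal projection neurons, 1 had a difference above 0 and 14 below, with a median of -0.24, and Ppp1r1b, the dopamine-regulated phosphatase inhibitor DARPP-32, was 333 FPKM in the rich and 409 in the poor libraries in the mean, with overlap. All 9 oligodendrocyte genes were below 0, with a median of -0.22, and Mbp, a main protein of myelin, was 702 ± 150.2 against 877 ± 215 FPKM (SD, n = 6 each). Against the 6 lowest oxycodone libraries the medians of these lists were -0.10 and -0.15. The median of striatal genes turned to 0.10 with 4 against 4 libraries (11 of 15 above 0) and to 0.23 when ranked within groups (15 of 15), where that of oligodendrocyte genes was -0.37. With 1 library left out at a time, the striatal median ran from -0.40 (without F1 SAL 1) to -0.09 (without F1 SAL 3) and the oligodendrocyte median from -0.41 (without F2 SAL 2) to -0.11 (without F2 IUO 1). Immediate early genes, which neurons induce on activity, were above 0 for 10 of 12, with a median of 0.38, and Egr1 was 65.0 against 56.2 FPKM with overlap. Their median was 0.17 against the 6 lowest oxycodone libraries and 0.16 when ranked by Alas2. Thalamus genes had a median of -0.18, with Tcf7l2 at 38.3 against 46.7 FPKM, and hypothalamus genes a median of -0.003, with Pomc at 2.82 against 1.96 FPKM. The thalamus median ran from -0.59 without F2 SAL 2 to 0.04 without F2 IUO 4 and was -0.56 against the 6 lowest oxycodone libraries, and ranked within groups the medians of these lists were -1.04 and -0.42. Glucocorticoid-responsive genes (Per1, 19.5 against 19.4 FPKM), astrocyte genes (Aldoc, 435 against 438 FPKM) and mitochondrially encoded genes (Mt-atp6, 38520 against 37750 FPKM) had medians of -0.09, 0.02 and -0.06. The first was -0.19 without F2 SAL 2, -0.008 without F2 IUO 4, 0.04 against the 6 lowest oxycodone libraries and 0.19 when ranked by Alas2. The second was -0.002 without F2 SAL 2, 0.14 against the 6 lowest oxycodone libraries and 0.20 when ranked by Alas2 (7 of 8 above 0 in each of the last 2). The third was 0.02 without F1 PNO 3 and 0.23 without libraries above 1000 FPKM of Ttr. It was -0.15 without F2 PNO 2 and -0.29 when ranked by Alas2 (0 of 13 above 0). Over all genes the median was 0.13 when ranked by Alas2, 0.06 when ranked within groups and 0.07 against the 6 lowest oxycodone libraries. No gene of these lists lay above or below in all 6 rich libraries against the poor set, beside 0.109% above and 0.0869% below over all genes.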
